A study of Mus musculus with 70 samples.

Results

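The 10 genes described here encode 8 nuclear receptors and 2 proteins tied to glucocorticoid action in mouse regulatory T cells (Tregs). Nr3c1 encodes the glucocorticoid receptor, Rara and Rarg encode retinoic acid receptors, and Rxra and Rxrb encode retinoid X receptors, the partners with which several other receptors bind DNA. Vdr encodes the vitamin D receptor, and Nr1d1 and Nr1d2 encode REV-ERB alpha and REV-ERB beta. Tsc22d3 encodes the glucocorticoid-induced leucine zipper protein (GILZ) and Fkbp5 encodes FKBP51, a co-chaperone of the glucocorticoid receptor. The rule is a list of names, drawn up with earlier results of these data known. The genes make up 10 of the 53465 gene identifiers in the count table and 10 of the 13173 protein-coding genes that passed the filter on low counts, so that all 10 were tested.

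The study asked how Tregs with the interleukin-33 receptor ST2 (gene Il1rl1) differ from those without it, and how both differ between tissues. RNA was measured by sequencing of small sorted samples from 5 male mice, aged 16.6, 17.1, 17.4, 18.1 and 18.6 weeks (mice 1 to 5), and 14 groups of 5 libraries were made. All were Foxp3-YFP-cre mice, in which the Foxp3 locus itself drives YFP and Cre (allele Foxp3tm4(YFP/icre)Ayr on the B6.129(Cg) background), so every group carried this allele. Live cells were sorted as CD4+ and YFP+ and free of CD8 and CD11b, and there was no treatment. ST2+ CD44hi and ST2- CD44hi Tregs came from blood, spleen, lungs, visceral adipose tissue (VAT), colon and the skin of the back, and resting ST2- CD44lo CD62L+ Tregs came from spleen and lungs. Each mouse gave 1 library to each group, so libraries with the same number came from the same animal. Tissue cannot be told apart from cell isolation: blood and spleen were not digested with enzyme, lungs, VAT and colon were digested with collagenase, and skin was digested with it for the longest time, while CD4+ cells were enriched before sorting in spleen and lungs alone.

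Nuclear receptors are transcription factors whose activity is set by small fat-soluble ligands. The glucocorticoid receptor waits in the cytoplasm with heat shock protein chaperones until it binds hormone, then enters the nucleus and turns on genes that include Tsc22d3 and Fkbp5, and FKBP51 in turn lowers the receptor's affinity for hormone. The retinoic acid and vitamin D receptors bind DNA as dimers with a retinoid X receptor. REV-ERB proteins bind heme and repress transcription, and their own levels cycle with the circadian clock. Vitamin A and vitamin D metabolites are known to set the homing receptors of T cells in gut and skin, and glucocorticoids are known to act on Tregs.

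Of 70 libraries, 67 had over 1000000 counts and were kept, with totals of 1304560 to 2759926 (median 2039002). The 3 others, from blood ST2+ mouse 1 and from colon ST2+ mice 2 and 5, held 488666, 3582 and 62333 counts and were left out, so colon ST2+ has 3 libraries and blood ST2+ has 4. Foxp3 was read at 105 to 414 CPM (counts scaled to a common library size) in every CD44hi library and was highest in skin. Summed markers of other cells were not absent. Keratinocyte genes summed to 20.3 to 1323 CPM in skin and at most 21.1 CPM elsewhere. Fibroblast genes reached 749 CPM in skin and 1085 CPM in colon, and colon epithelium genes reached 3340 CPM in colon. Myeloid genes summed to 1228 to 1491 CPM in the 3 colon ST2+ libraries and 33.5 to 242 CPM in colon ST2- CD44hi Tregs. In the CD44hi libraries of other tissues they reached at most 249 CPM (VAT). B cell genes reached 2065 CPM in VAT and at most 961 CPM in the CD44hi libraries of other tissues. A set of immediate early and heat shock genes, which are known to respond to cell handling, summed to 878 to 1555 CPM in blood and 927 to 2134 CPM in spleen, against 2211 to 3437 CPM in lungs, 1747 to 5672 CPM in VAT, 3731 to 6278 CPM in colon and 3497 to 5131 CPM in skin. These sums move with several of the tissue differences given below and their part in the results was not tested. In such bulk samples, fewer cells of a type and less RNA per cell cannot be told apart.

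The 10 genes differed widely in level. Per kilobase of exon, so that genes can be compared, the median level over the 67 libraries was 147 CPM for Tsc22d3 and 53.5 CPM for Nr3c1, the highest of the 10. Rxrb (14.9 CPM per kilobase), Rara (13.8) and Nr1d2 (13.4) followed, then Nr1d1 (6.58), Fkbp5 (5.55), Rarg (5.04) and Rxra (3.37), and Vdr was lowest at 0.113 CPM per kilobase. Reads of 8 of the genes were found in 67 of 67 libraries, those of Nr1d1 in 57 and those of Vdr in 37. In the GRCm38 build these genes lie at chr18:39410545-39519421 (Nr3c1, minus strand), chr11:98927818-98974942 (Rara, plus), chr15:102234938-102257517 (Rarg, minus), chr2:27676440-27762957 (Rxra, plus), chr17:34031812-34038399 (Rxrb, plus), chr15:97854425-97910630 (Vdr, minus), chr11:98767932-98775333 (Nr1d1, minus), chr14:18204054-18239127 (Nr1d2, minus), chrX:140539528-140600659 (Tsc22d3, minus) and chr17:28399094-28517527 (Fkbp5, minus). Values below are CPM summed over all exons of a gene, scaled by TMM library factors.

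Skin Tregs stood apart most often among the 6 tissues. The CD44hi Tregs of each tissue, with ST2+ and ST2- weighted equally, were compared with the mean of the other 5 tissues by edgeR's quasi-likelihood test, and a gene was called when its fold change was 1.5 or more and its p, adjusted over all tested genes after Benjamini and Hochberg, was 0.05 or less. In skin, 7 of the 10 genes were higher and 1 was lower, where 21.6% of all tested genes were called higher and 15.6% lower. In spleen, 6 of 10 were called, all lower, beside 6.04% of all genes lower and 9.9% higher. In blood, 4 of 10 were called, all lower (8.19% of all genes lower, 5.63% higher), in colon 2 were higher and 1 was lower (16.5% and 1.63% of all genes), and in VAT 2 were called, both higher (5.72% and 2.51%). In lungs edgeR called 0 of 10, beside 2.97% of all genes called higher and 0.827% lower, with 3 members at an unadjusted p under 0.05 and 0 called by DESeq2 or limma-voom. The median log2 difference of the 10 genes was 1.71 in skin against 0.02 over all tested genes, −1.06 against 0.04 in spleen, −0.60 against −0.08 in blood, 0.15 against 0.10 in colon, 0.11 against 0.02 in VAT and −0.03 against −0.01 in lungs.

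**Figure D1:**
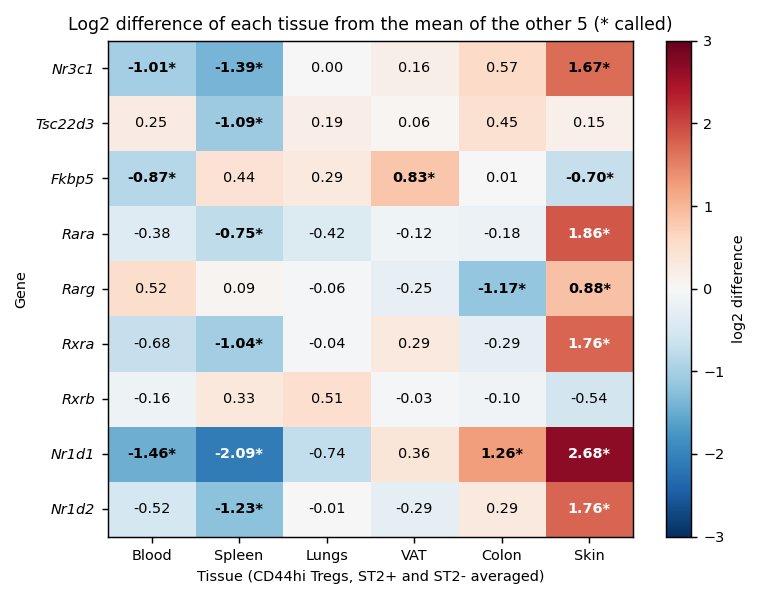
Log2 difference of each tissue (columns) from the mean of the other 5 in CD44hi Tregs for 9 of the 10 genes (rows), with an asterisk where the gene was called. Skin values run from 2.68 for Nr1d1 to −0.70 for Fkbp5, spleen is lowest for Nr1d1 (−2.09) and Nr3c1 (−1.39), and Vdr is not drawn because blood was at or near 0 counts.

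Between single tissues, the 15 pairs gave 68 calls among 150 tests of these genes, beside 19.5% of all such tests over all genes. Skin against spleen and skin against lungs each gave 9 of 10, skin against VAT 7, skin against blood 6 and skin against colon 5. The F test over tissues was passed by 9 of 10 genes in ST2+ CD44hi Tregs, Fkbp5 being the exception (adjusted p = 0.0708), and by 9 of 10 in ST2- CD44hi Tregs, Rxrb being the exception (adjusted p = 0.231). Over all tested genes, 47.6% and 43.5% passed these F tests.

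Nr3c1, the glucocorticoid receptor gene, was highest in skin. Skin ST2+ CD44hi Tregs held 1042, 1224, 1221, 1246 and 1329 CPM in mice 1 to 5, and skin ST2- CD44hi Tregs held 1109, 1362, 1244, 1470 and 1350 CPM. Every skin library was above every library of every other tissue, where the highest was 807 CPM in lungs. The medians over CD44hi libraries rose from 204 CPM in spleen (152 to 303, n = 10) and 274 CPM in blood (124 to 363, n = 9) to 479 CPM in lungs (306 to 807, n = 10), 539 CPM in VAT (207 to 765, n = 10), 662 CPM in colon (565 to 804, n = 8) and 1245 CPM in skin (1042 to 1470, n = 10). Against the mean of the other tissues, skin was higher by 1.67 on the log2 scale (SE 0.0891, edgeR adjusted p = 4.28e-24), and spleen was lower (−1.39, SE 0.111, adjusted p = 7.93e-16), as was blood (−1.01, SE 0.113, adjusted p = 1.26e-10). In the order of tissue means, blood against spleen (adjusted p = 0.119), VAT against lungs (adjusted p = 0.605) and colon against VAT (adjusted p = 0.113) did not differ beyond their spread, whereas lungs against blood (adjusted p = 3.53e-06) and skin against colon (0.92, adjusted p = 4.19e-07) did. Skin was higher within each population, by 1.40 in ST2+ (SE 0.129) and 1.94 in ST2- CD44hi Tregs (SE 0.122). Without the 5 libraries that held over 500 CPM of keratinocyte or colon epithelium markers, the skin difference was 1.68.

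Tsc22d3 and Fkbp5, which glucocorticoids are known to induce, did not share the skin level of Nr3c1. Tsc22d3 held a median of 650 CPM in skin (528 to 715), 679 CPM in blood (538 to 936), 627 CPM in lungs (501 to 905), 600 CPM in VAT (258 to 916) and 773 CPM in colon (647 to 886). Spleen was the low tissue for GILZ, with a median of 312 CPM (191 to 489). Spleen was lower than the mean of the others by 1.09 on the log2 scale (SE 0.0984, adjusted p = 7.02e-14), and the step from spleen to VAT was the one between neighbouring tissues that was called (0.96, adjusted p = 2.36e-09). Skin differed from the mean of the others by 0.15 (adjusted p = 0.162), colon by 0.45 (adjusted p = 0.000256) and blood by 0.25 (adjusted p = 0.0467), the last of these under the 1.5-fold limit together with colon.

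Fkbp5 was highest in VAT, with a median of 92.5 CPM (49.0 to 159), and lowest in blood (37.3 CPM, 4.39 to 117) and skin (37.5 CPM, 5.56 to 58.7). VAT was higher than the mean of the others by 0.83 (SE 0.217, adjusted p = 0.00531), which was 0.67 (adjusted p = 0.0924) without mouse 2. Blood was lower (−0.87, SE 0.262, adjusted p = 0.0110), and that call was lost without mouse 2 (adjusted p = 0.106) or mouse 4 (adjusted p = 0.0510). Within populations the blood difference was −0.11 in ST2+ (adjusted p = 0.969) and −1.62 in ST2- CD44hi Tregs (adjusted p = 0.00121). Skin was also lower (−0.70, SE 0.246, adjusted p = 0.0141), lost without mouse 1 (−0.51, adjusted p = 0.0768), mouse 2 (adjusted p = 0.0554) or mouse 5 (adjusted p = 0.0750). Neither population alone passed the test in VAT (adjusted p = 0.0667 in ST2+ and 0.116 in ST2-) or in skin (0.0501 and 0.212). The skin and blood ranges overlap those of every other tissue for this gene. Across the means of the 14 groups, Nr3c1 correlated with Tsc22d3 at r = 0.378 and with Fkbp5 at r = 0.237, and Tsc22d3 with Fkbp5 at −0.431, given as a description since the groups share mice.

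**Figure D2:**
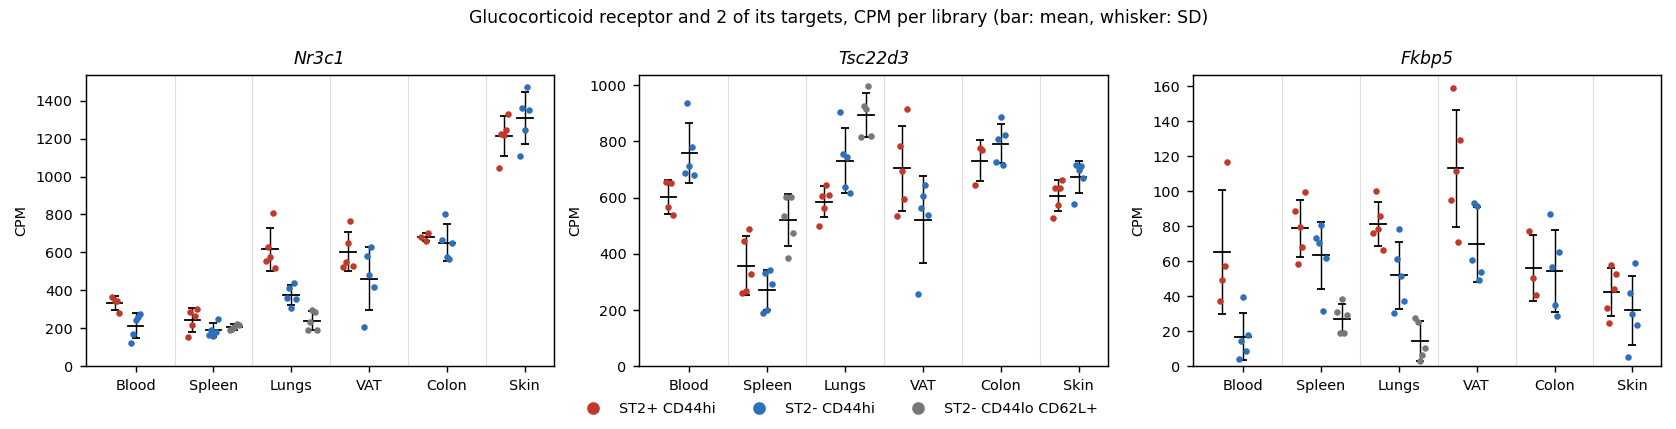
CPM (vertical axes, from 0) of Nr3c1, Tsc22d3 and Fkbp5 in each of the 67 libraries by tissue and population, with the group mean as a bar and the SD as a whisker. Nr3c1 climbs from spleen to skin, Tsc22d3 is low in spleen CD44hi Tregs, and Fkbp5 is low in blood ST2- CD44hi and in both CD44lo CD62L+ groups.

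The DNA just before 1 start site of each gene of the glucocorticoid-induced pair is shown because both are textbook targets of the receptor. The windows were read from RefSeq promoters of GRCm38.p6 on the minus strand, ended before any annotated exon, and searched on both strands for AGAACA, the core of the glucocorticoid receptor site, for AGGTCA, the core that retinoid, vitamin D and REV-ERB receptors share, and for CACGTG, the E-box of the clock proteins. Capitals mark the matches. Tsc22d3 had 3 such windows and Fkbp5 had 1. The Tsc22d3 window shown, chrX:140600660-140600772 (113 bases), alone among these 3 has a match. It holds TGTTCT, which is AGAACA on the other strand, starting 185 bases before the start site. The Fkbp5 window is chr17:28486150-28486399 (250 bases), with CACGTG starting 169 bases before its start site. That window lies inside the span of Fkbp5 given above. Distances run from the RefSeq start site, also where annotated exon bases before that site were cut from the window. Which start sites these cells used was not tested.
Tsc22d3: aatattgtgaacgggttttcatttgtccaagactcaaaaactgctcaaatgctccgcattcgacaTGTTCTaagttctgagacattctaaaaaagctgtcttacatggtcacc
Fkbp5: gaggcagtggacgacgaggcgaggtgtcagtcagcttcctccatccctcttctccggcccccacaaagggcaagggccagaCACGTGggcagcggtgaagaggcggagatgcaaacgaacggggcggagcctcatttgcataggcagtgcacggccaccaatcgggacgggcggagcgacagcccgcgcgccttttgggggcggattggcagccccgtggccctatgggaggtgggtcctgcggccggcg
Among 32851 such windows of 250 bases, 16.1% held AGAACA, 14.02% held AGGTCA and 6.02% held CACGTG. Of 17 windows of these 10 genes, which come from 9 of them, 1 held AGAACA (Tsc22d3), 3 held AGGTCA (Nr1d2, Rarg and Rxra) and 2 held CACGTG (Fkbp5 and Rara). Some member windows were cut to fewer bases, as that of Tsc22d3 was (113 bases), so these shares are not matched for length. A match is a description of the letters and not of binding.

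Other genes that glucocorticoids are known to induce were counted from a list of 16, all tested. Of all tested genes, 21.6% were called higher in skin, 16.5% in colon, 5.72% in VAT and 2.97% in lungs. In spleen 6.04% of all genes were called lower, and in blood 8.19% were lower and 5.63% higher. In skin 13 of 16 were called, all higher, with a median log2 difference of 1.39 against 0.02 over all genes. Irs2, an adaptor of insulin signalling, rose by 2.57 (adjusted p = 6.13e-25) and the chemokine receptor gene Cxcr4 by 1.55 (adjusted p = 1.55e-15). In spleen 14 were called, all lower (median −1.21), led by Irs2 (−2.94, adjusted p = 4.44e-19) and the clock gene Per1 (−2.42, adjusted p = 3.00e-15). Blood had 1 higher and 12 lower (median −1.54). The member that rose in blood was Txnip, a regulator of thioredoxin (0.93, adjusted p = 3.83e-14), and among those that fell were the RNA-decay factor gene Zfp36 (−1.79, adjusted p = 2.17e-14) and the phosphatase gene Dusp1 (−1.40, adjusted p = 6.66e-12). Colon had 9 calls, VAT 6 and lungs 3, all higher. In VAT, Anxa1, which encodes annexin A1, was higher by 2.56 (adjusted p = 6.64e-14), at 644 CPM in ST2+ and 243 CPM in ST2- CD44hi Tregs on average. Several genes of this list, Dusp1 and Zfp36 among them, also respond to other stimuli, and the immediate early sums given above move with these counts: 8 of 9 immediate early genes were lower in blood, 6 of 9 lower in spleen, and 7, 5 and 4 of 9 higher in colon, skin and VAT. Of 8 genes for receptor chaperones and hormone handling, 4 were higher in skin, with Hsp90aa1 (1.31, adjusted p = 8.43e-20) and Hsp90ab1 (0.82, adjusted p = 3.69e-17), the HSP90 chaperones, in front. The heat shock genes Hspa1a and Hspa1b were higher in skin as well (5.50 and 4.48, adjusted p = 1.87e-17 and 1.43e-15).

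The retinoic acid receptor gene Rara was a skin gene among these Tregs. Skin ST2+ CD44hi Tregs held 307, 241, 227, 191 and 247 CPM in mice 1 to 5 and skin ST2- CD44hi Tregs held 229, 180, 207, 183 and 179 CPM. No library of another tissue reached these values, the next being 133 CPM in colon. Medians elsewhere lay between 47.2 CPM in spleen and 70.3 CPM in VAT. Skin exceeded the mean of the others by 1.86 on the log2 scale (SE 0.136, adjusted p = 4.40e-18), and spleen was lower (−0.75, SE 0.163, adjusted p = 0.000264). Among neighbours in the order of tissue means, the step from VAT to skin (1.65, adjusted p = 8.20e-10) was called and no other.

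Rxra, a retinoid X receptor gene, followed Rara. Its median was 64.2 CPM in skin (37.7 to 91.2), 33.3 CPM in VAT (10.1 to 48.4), 24.5 CPM in lungs (9.92 to 38.0), 18.9 CPM in colon (9.31 to 31.1), 16.3 CPM in blood (3.51 to 40.2) and 12.3 CPM in spleen (2.09 to 29.99). Skin overlapped the upper end of blood, lungs and VAT. The skin difference was 1.76 (SE 0.236, adjusted p = 5.57e-09), spleen was lower by −1.04 (SE 0.288, adjusted p = 0.00447), and the step from VAT to skin was called (1.22, adjusted p = 0.00331). Within populations the spleen difference was −0.48 in ST2+ (adjusted p = 0.473) and −1.59 in ST2- CD44hi Tregs (adjusted p = 0.00696), a contrast that the interaction test below did not call.

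Rarg moved less and its groups overlapped. Its median was 37.2 CPM in skin (25.9 to 53.9), 26.9 CPM in spleen, 26.3 CPM in blood, 23.4 CPM in lungs, 18.3 CPM in VAT and 10.7 CPM in colon (5.11 to 21.02). It was higher in skin by 0.88 (SE 0.212, adjusted p = 0.000435) and colon was lower by −1.17 (SE 0.285, adjusted p = 0.00109), making Rarg the member that was lower in colon. Within ST2+ CD44hi Tregs the skin difference was 0.60 (adjusted p = 0.120) and blood had the highest mean (44.7 against 38.5 CPM in skin), and within ST2- CD44hi Tregs it was 1.15 (adjusted p = 0.00126). The colon range lay wholly below the skin range, and no pair of neighbouring tissues differed by the test. With the 67 kept libraries, edgeR called Rxrb in none of the 6 tissues, although 2 of its differences had an adjusted p under 0.05. Its medians were 40.8 CPM in skin, 50.2 CPM in VAT, 51.6 CPM in colon, 54.4 CPM in blood, 65.9 CPM in spleen and 82.4 CPM in lungs. The difference was −0.54 in skin (SE 0.179, adjusted p = 0.00932) and 0.51 in lungs (adjusted p = 0.0423), both under the 1.5-fold limit. EdgeR called the skin difference with all 70 libraries (−0.63, adjusted p = 0.00936) and without mouse 5 (−0.63, adjusted p = 0.00520). It called the lung difference without mouse 4 (0.60, adjusted p = 0.0294). Over the 14 group means, Rxrb ran against Rxra (r = −0.663, a description).

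**Figure D3:**
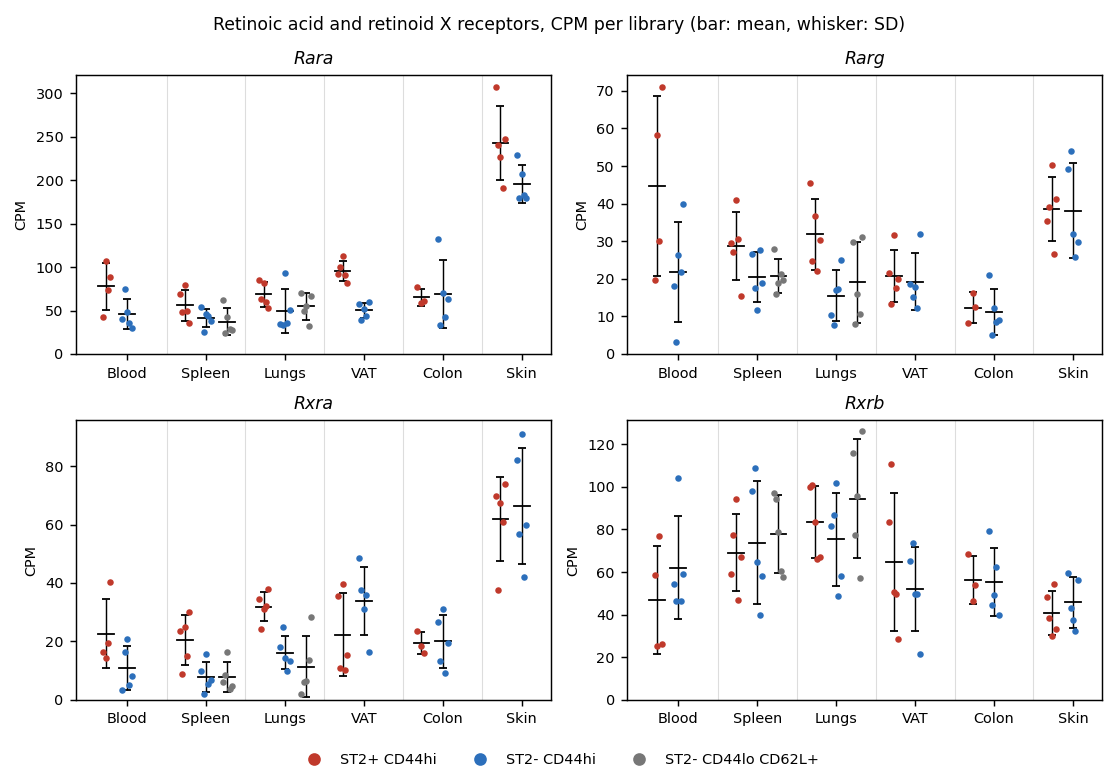
CPM (vertical axes, from 0, each panel with its own scale) of Rara, Rarg, Rxra and Rxrb in each library by tissue and population, with group mean and SD. Rara and Rxra are highest in skin, Rarg is lowest in colon (median 10.7 CPM), and Rxrb is lowest in skin (median 40.8 CPM).

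Genes that supply or answer retinoic acid had another pattern. Of 13 retinoid handling genes, 8 were tested, and of these 4 were called in colon, all higher, while skin had 3 higher and 1 lower. Of all tested genes, 16.5% were called higher in colon, and 21.6% were higher and 15.6% lower in skin. In skin, the retinol dehydrogenase gene Rdh11 (0.95, adjusted p = 8.75e-08) and the fatty acid-binding protein gene Fabp5 (0.93, adjusted p = 8.44e-06) were higher, and Dhrs3, which encodes an enzyme that returns retinaldehyde to retinol, was lower (5.32 and 7.76 CPM on average in ST2+ and ST2- CD44hi Tregs, adjusted p = 0.00154). In colon Aldh1a3, a retinaldehyde dehydrogenase gene among those called, averaged 17.6 CPM in ST2+ and 2.10 CPM in ST2- CD44hi Tregs, in libraries that also held up to 3340 CPM of epithelium markers. Of 7 genes that retinoic acid is known to induce, 6 were tested, with 5 higher in colon and, in skin, 1 higher and 3 lower. Dhrs3 is on this list as well as on that of retinoid handling. The gut-homing receptor gene Ccr9 averaged 30.04 and 159 CPM in ST2+ and ST2- colon CD44hi Tregs and 0.124 and 1.38 CPM in those of skin. Itga4, the integrin alpha 4 gene, averaged 12.6 and 8.76 CPM in ST2+ and ST2- skin CD44hi Tregs and at least 348 CPM in every other group (skin log2 difference −5.67, adjusted p = 4.49e-31). Tgm2, the transglutaminase 2 gene of the same list, was higher in skin, at 4.08 and 3.37 CPM on average in ST2+ and ST2- CD44hi Tregs (adjusted p = 0.0100), with several other groups near 0.

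Nr1d1 had the widest range of tissue medians as a ratio among the members other than Vdr. Nr1d1 held 229, 117, 155, 80.1 and 127 CPM in skin ST2+ CD44hi Tregs of mice 1 to 5 and 166, 138, 144, 92.3 and 116 CPM in skin ST2- CD44hi Tregs. Colon ST2- CD44hi Tregs held 93.2, 93.8, 50.6, 74.5 and 79.7 CPM, against 31.6, 78.1 and 28.7 CPM in colon ST2+ CD44hi Tregs of mice 1, 3 and 4. Blood ST2- CD44hi Tregs held 0, 0, 20.0, 6.63 and 0 CPM, and blood ST2+ CD44hi Tregs held 0, 34.4, 45.6 and 33.0 CPM in mice 2 to 5. In blood 3 of 4 ST2+ libraries lay above all ST2- libraries. ST2+ was higher by 2.37 there, which edgeR did not call (adjusted p = 0.0825). The difference was called with DESeq2 (adjusted p = 0.0426) and by edgeR without mouse 3 (adjusted p = 0.0240). Medians ran from 6.52 CPM in spleen (0 to 22.2) and 6.63 CPM in blood (0 to 45.6) through 15.6 CPM in lungs, 36.3 CPM in VAT and 76.3 CPM in colon to 132 CPM in skin (80.1 to 229). The skin range overlaps that of colon alone. Skin was higher by 2.68 (SE 0.340, adjusted p = 1.23e-09) and spleen lower by −2.09 (SE 0.472, adjusted p = 0.000458). Colon was higher by 1.26 (SE 0.405, adjusted p = 0.0158), a call that was lost without mouse 3 (1.23, adjusted p = 0.0653) or without mouse 4 (1.33, adjusted p = 0.0594). Without the libraries rich in epithelial markers it was 0.96 (adjusted p = 0.478), with 1 colon ST2+ library left and assumed to vary like the other groups. Within populations the colon difference was 0.46 in ST2+ (adjusted p = 0.782) and 2.06 in ST2- CD44hi Tregs (adjusted p = 0.00161). Blood was lower by −1.46 (SE 0.480, adjusted p = 0.0206), lost without mouse 2 (−1.11, adjusted p = 0.129) or mouse 5 (−1.24, adjusted p = 0.120), and it was −0.38 in ST2+ (adjusted p = 0.831) and −2.54 in ST2- CD44hi Tregs (adjusted p = 0.00825). Skin against colon, the highest neighbours, gave 1.18 (adjusted p = 0.0972). Nr1d1 shares 263 exon bases, 8.55% of its exon length, with the antisense gene Thra (thyroid hormone receptor alpha), and reads there cannot be told apart because the library kit does not keep strand. Thra itself was low, with a median of 13.4 CPM and skin means of 16.5 and 18.3 CPM in ST2+ and ST2- CD44hi Tregs.

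Nr1d2 was also highest in skin, and without overlap. Skin ST2+ CD44hi Tregs held 269, 255, 239.1, 189 and 286 CPM in mice 1 to 5 and skin ST2- CD44hi Tregs held 166, 222, 217, 201 and 198 CPM, above the highest value elsewhere (148 CPM, VAT). Medians were 40.0 CPM in spleen, 56.0 CPM in blood, 62.5 CPM in VAT, 80.2 CPM in lungs and 87.5 CPM in colon. Skin exceeded the mean of the others by 1.76 (SE 0.143, adjusted p = 3.16e-16), spleen was lower by −1.23 (SE 0.177, adjusted p = 1.34e-07), and the step from colon to skin was called (1.23, adjusted p = 2.04e-05).

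The sequences before the start sites of this pair are shown because E-boxes and shared receptor cores are the known entry points of clock control. Both windows were read in the same way and lie on the minus strand. The Nr1d1 window is chr11:98775378-98775627 (250 bases, 54.8% G or C), with none of the 3 motifs. Its RefSeq start site lies outside the span of Nr1d1 given above. In a check of that site, 0 transcripts held the bases just after it, against 1 for Nr1d2. The Nr1d1 window may therefore not lie before a start site of the annotated transcripts. The Nr1d2 window is chr14:18239128-18239356 (229 bases), with AGGTCA in capitals starting 77 bases before the RefSeq start site.
Nr1d1: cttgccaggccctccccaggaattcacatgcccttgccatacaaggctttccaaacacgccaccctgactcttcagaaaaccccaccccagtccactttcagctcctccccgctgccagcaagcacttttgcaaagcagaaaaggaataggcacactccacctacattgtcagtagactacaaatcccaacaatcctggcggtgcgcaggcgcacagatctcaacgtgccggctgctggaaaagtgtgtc
Nr1d2: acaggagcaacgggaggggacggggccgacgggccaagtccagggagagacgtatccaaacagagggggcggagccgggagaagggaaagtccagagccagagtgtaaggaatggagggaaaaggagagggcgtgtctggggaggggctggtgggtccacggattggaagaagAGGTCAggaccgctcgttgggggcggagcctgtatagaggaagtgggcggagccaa
That these letters are not in the Nr1d1 window says nothing of sites farther away.

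Of 15 other clock genes, all tested, 12 were called in skin, all higher (median 1.12), beside 21.6% of all genes higher. All calls were lower in spleen (6, beside 6.04% of all genes lower) and blood (6, 8.19%). All were higher in colon (6, beside 16.5% of all genes higher), VAT (3, 5.72%) and lungs (2, 2.97%). Per1 is on this list as well as on that of glucocorticoid-induced genes. Hlf, a clock output factor gene, averaged 153 CPM in both skin populations and at most 31.5 CPM in every other group (skin log2 difference 4.15, adjusted p = 1.52e-17). Nfil3, a repressor that works in the same output loop, was higher in skin (1.91, adjusted p = 1.93e-17) and lower in blood (−2.16, adjusted p = 8.99e-13). Bhlhe40, a repressor of the clock's activators that T cell stimulation also induces, was lower in blood (−2.91, adjusted p = 2.76e-20) and higher in colon (1.71, adjusted p = 5.22e-16). The hour of harvest is not given in the sources used here.

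Vdr was low and uneven. In counts, the 9 blood CD44hi libraries held 1 Vdr read together, while colon held 122 in ST2+ and 178 in ST2- CD44hi Tregs, skin 162 and 101, and VAT 100 and 89. Colon ST2+ CD44hi Tregs held 0.479, 72.2 and 13.2 CPM in mice 1, 3 and 4, and colon ST2- CD44hi Tregs held 23.9, 51.1, 14.3, 0 and 20.5 CPM in mice 1 to 5. Skin ST2+ CD44hi Tregs held 27.3, 13.9, 3.72, 30.04 and 19.8 CPM, and skin ST2- CD44hi Tregs held 20.1, 0.674, 0.638, 2.796 and 28.1 CPM. Within each of these groups, then, libraries ranged widely, least so in skin ST2+ CD44hi Tregs (3.72 to 30.04 CPM). The 0 reads in blood ST2- CD44hi Tregs allow a limit of 3 counts over the group (0.312 CPM). Against this limit, the pooled level was 64.1-fold higher in colon ST2- CD44hi Tregs, 37.9-fold in skin, 27.4-fold in VAT, 16.2-fold in spleen and 6.60-fold in lungs. These folds cover the counting error of the blood group alone. They do not cover the counting error of the other group or the spread between mice.

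The edgeR test called Vdr higher in colon (adjusted p = 1.74e-05), skin (adjusted p = 0.000322) and VAT (adjusted p = 0.0308), and lower in blood (adjusted p = 0.000825). No fitted fold is given because blood is near 0. Within populations, colon was called in both (adjusted p = 0.00236 in ST2+ and 0.00539 in ST2-). Skin was called in ST2+ alone (0.00276, against 0.0560 in ST2-) and blood in ST2- alone (0.00758, against 0.0901 in ST2+). Neither population alone passed in VAT (0.0750 in ST2+ and 0.404 in ST2-). The VAT call was lost with DESeq2 (adjusted p = 0.106), limma-voom (0.792), the replicate block (0.0664), and without mouse 1 (0.136), mouse 2 (0.398) or mouse 4 (0.0543). With both populations together, the edgeR fit returned an adjusted p of 1 in spleen, and in blood without mouse 1. DESeq2 (adjusted p = 0.0444) and limma-voom (0.0333) called Vdr lower in spleen. Within populations, edgeR called it lower in spleen ST2+ (adjusted p = 0.0344) and did not call it in spleen ST2- (0.552). In colon the 2 libraries with the most Vdr also held the most epithelium markers, 72.2 CPM of Vdr beside 2045 CPM of markers in ST2+ mouse 3, and 51.1 beside 3340 CPM in ST2- mouse 2. Colon ST2- mouse 1 held 23.9 CPM of Vdr beside 61.9 CPM of markers. Leaving out the 5 libraries over 500 CPM of such markers keeps 1 colon ST2+ library, that of mouse 1 (0.479 CPM of Vdr). It then carries the ST2+ share of the colon mean, and it held 1491 CPM of myeloid markers and 922 CPM of fibroblast markers. That setting gave an adjusted p of 0.859 for colon. In skin the 2 libraries with the most keratinocyte RNA, ST2+ mouse 3 (1323 CPM) and ST2- mouse 3 (1272 CPM), held 3.72 and 0.638 CPM of Vdr, and the highest Vdr, 30.04 CPM in ST2+ mouse 4, stood beside 180 CPM of keratinocyte markers.

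**Figure D4:**
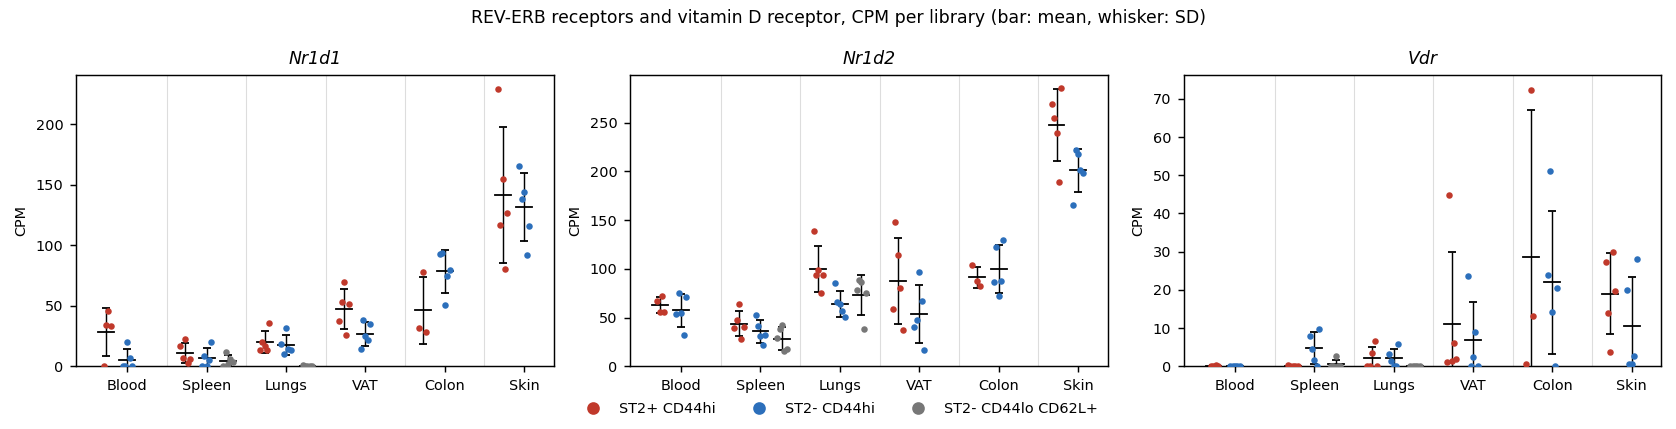
CPM (vertical axes, from 0) of Nr1d1, Nr1d2 and Vdr in each library by tissue and population, with group mean and SD. Nr1d1 and Nr1d2 are highest in skin, and Vdr ranges from 0 to 72.2 CPM in colon and is 0 in 8 of the 9 blood libraries.

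Of 6 vitamin D pathway genes, 4 were tested. In colon 3 were called, all higher, beside 16.5% of all genes higher. In skin 1 was higher and 2 were lower, beside 21.6% and 15.6% of all genes. Ccr10, the skin- and mucosa-homing receptor gene of this list, averaged 84.3 and 70.2 CPM in ST2+ and ST2- skin CD44hi Tregs (skin log2 difference 3.41, adjusted p = 2.44e-08). Cd38, an ectoenzyme gene, was lower in skin (−2.61, adjusted p = 6.82e-12) and higher in colon (1.18, adjusted p = 4.15e-05). Ccr10 was also higher in ST2+ than in ST2- CD44hi Tregs of blood, at 82.0 against 0.468 CPM on average (adjusted p = 0.000662).

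Between ST2+ and ST2- CD44hi Tregs of the same tissue, 3 of 60 tests of these genes were called, 2 in blood and 1 in lungs, all higher in ST2+. Over all tested genes, 4.04% were called in blood, 0.782% in lungs, 0.319% in spleen, 3.12% in VAT, 0.0683% in colon and 0.213% in skin. The median log2 difference of the 10 genes in blood was 0.90 against 0 over all genes. Fkbp5 held 37.3, 49.2, 57.1 and 117 CPM in blood ST2+ CD44hi Tregs of mice 2 to 5 and 4.39, 14.4, 39.5, 8.67 and 18.1 CPM in blood ST2- CD44hi Tregs of mice 1 to 5. ST2+ was higher by 1.93 (SE 0.457, adjusted p = 0.00598), with 1 ST2- library inside the ST2+ range, and the call was lost without mouse 5 (1.53, adjusted p = 0.133). Nr3c1 held 363, 346, 343 and 281 CPM against 124, 170, 246, 259 and 274 CPM in blood, groups that did not overlap. The difference was 0.64 (SE 0.192, adjusted p = 0.0402), and it was lost without mouse 1 (0.49, adjusted p = 0.0610), mouse 2 (0.52, 0.266), mouse 3 (0.70, 0.128) or mouse 4 (0.70, 0.0704). The kept blood ST2+ libraries came from 202, 55, 220 and 220 sorted cells in mice 2 to 5. Blood ST2- CD44hi ones came from 166, 220, 220, 220 and 220 in mice 1 to 5.

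In lungs, Nr3c1 held 554, 630, 578, 807 and 519 CPM in ST2+ and 360, 411, 306, 438 and 356 CPM in ST2- CD44hi Tregs. All ST2+ values were above all ST2- values, and the difference was 0.72 (SE 0.181, adjusted p = 0.0277), lost without mouse 2 (adjusted p = 0.118), mouse 3 (0.281), mouse 4 (0.209) or mouse 5 (0.0958). In VAT, Rara held 92.4, 100.3, 113, 90.5 and 81.2 CPM in ST2+ and 57.5, 39.4, 51.8, 43.2 and 59.5 CPM in ST2- CD44hi Tregs, also without overlap. That difference of 0.92 (SE 0.282) had an adjusted p of 0.0503 and was called with the replicate block (0.94, adjusted p = 0.0121) and with DESeq2 (adjusted p = 0.0170). VAT ST2+ libraries came from 220 sorted cells each, and VAT ST2- CD44hi ones from 220, 93, 192, 118 and 135 in mice 1 to 5. In VAT, ST2 state and cell number are thus not fully separate. In spleen, VAT, colon and skin edgeR called 0 members, with 3, 4, 0 and 0 at an unadjusted p under 0.05. In these 4 tissues DESeq2 called 1, the Rara difference in VAT, and limma-voom called 0.

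Genes of the wider pathways also differed with ST2, mostly in blood and VAT. Of the 16 glucocorticoid-induced genes, 5 were higher in ST2+ CD44hi Tregs of blood, 5 of VAT, 2 of spleen and 1 of lungs, with 1 lower in lungs. Of all tested genes, 4.04% were called in blood, 3.12% in VAT, 0.319% in spleen and 0.782% in lungs, in either direction. Anxa1 averaged 201 against 7.07 CPM in blood (4.80, adjusted p = 4.19e-08) and 19.7 against 2.71 CPM in spleen (2.85, adjusted p = 0.0197). Irs2 averaged 397 against 113 CPM in VAT (1.82, adjusted p = 1.10e-05) and 166 against 72.0 CPM in lungs (1.20, adjusted p = 0.0151). In VAT 3 of 9 immediate early genes were also higher in ST2+, with sums of 3689 to 5672 CPM against 1747 to 3717 CPM in ST2-, and their part in the VAT calls was not tested. Of the clock genes 3 of 15 were higher in ST2+ in blood, with Nfil3 (2.26, adjusted p = 7.26e-06) and Bhlhe40 (1.34, adjusted p = 0.00122) leading. Among 22 tested nuclear receptor genes outside the members (of 40 listed), Rora, which encodes an activator that binds the same sites as REV-ERB proteins, was higher in ST2+ Tregs of blood at 641 against 226 CPM (1.51, adjusted p = 0.000679).

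CD44hi ST2- Tregs were compared with resting CD44lo CD62L+ Tregs in lungs and spleen. In lungs 3 of 10 genes were called, all higher in CD44hi, beside 5.53% of all genes. Nr1d1 held 18.8, 10.4, 31.8, 14.6 and 13.2 CPM in CD44hi and 1.10, 0.502, 0, 0 and 0 CPM in CD44lo CD62L+ Tregs of lungs. With 180 against 4 counts, the ratio per library size was 52.3 (95% exact interval 20.1 to 194, counting error only; edgeR adjusted p = 0.000292). Fkbp5 held 30.4, 61.3, 78.4, 51.7 and 37.4 CPM in CD44hi and 27.6, 25.1, 2.81, 6.30 and 10.4 CPM in CD44lo CD62L+ Tregs, again without overlap (1.83, SE 0.441, adjusted p = 0.00372), and was not called without mouse 3 (1.38, adjusted p = 0.0917). Nr3c1 was higher by 0.65 (SE 0.182, adjusted p = 0.0183), at 360, 411, 306, 438 and 356 against 190, 234, 294, 286 and 192 CPM, lost without mouse 2 (adjusted p = 0.147), mouse 4 (0.0628) or mouse 5 (0.148).

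In spleen the 1 call of 10 (5.03% of all genes) was Tsc22d3, lower in CD44hi Tregs. It held 191, 330, 201, 342 and 294 CPM in CD44hi and 536, 603, 386, 603 and 474 CPM in CD44lo CD62L+ Tregs, without overlap (−0.94, SE 0.166, adjusted p = 3.91e-05). Fkbp5 differed there by 1.21 (SE 0.424, adjusted p = 0.0847), and DESeq2 (adjusted p = 0.0391) and limma-voom (adjusted p = 0.00593) called it. When the difference in lungs was set against that in spleen, edgeR called 0 of 10 members (0.129% of all genes), with 3 at an unadjusted p under 0.05, Nr1d1, Nr3c1 (0.77, adjusted p = 0.335) and Tsc22d3 (0.65, adjusted p = 0.394). This contrast was run with edgeR alone, and the lung and spleen values are not shown to differ.

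Resting CD44lo CD62L+ Tregs also differed between lungs and spleen, in 2 of 10 genes (3.16% of all genes). Tsc22d3 held 814, 927, 916, 998 and 818 CPM in lungs and 536, 603, 386, 603 and 474 CPM in spleen (0.78, SE 0.164, adjusted p = 0.00113). Nr1d2 held 78.7, 88.8, 86.2, 37.8 and 75.4 CPM in lungs and 28.6, 38.5, 42.6, 15.5 and 17.5 CPM in spleen (1.36, SE 0.301, adjusted p = 0.00230), with mouse 4 of lungs inside the spleen range. Nr1d1 ran the other way, lower in lungs by −3.52 (4 counts against 56 in spleen), and was not called (edgeR adjusted p = 0.0720). It was called with DESeq2 (adjusted p = 0.0102) and by edgeR without mouse 1 (adjusted p = 0.0250). The lungs were digested and the spleen was not. Of the glucocorticoid-induced genes, 8 of 16 were higher in lungs and 1 lower, Cxcr4 (3.40, adjusted p = 3.01e-13) and Per1 (3.36, adjusted p = 1.51e-11) leading and Ddit4 (−2.59, adjusted p = 0.0234) falling, and 3 of 9 immediate early genes were higher, Junb (0.93, adjusted p = 5.98e-05) among them.

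Whether the tissue pattern depended on ST2 was asked by an interaction F test over the 6 tissues. With edgeR 0 of 10 members passed (1.43% of all genes), with 3 at an unadjusted p under 0.05 and 0 with limma-voom. The lowest was Tsc22d3 (adjusted p = 0.0925), which passed with DESeq2 (adjusted p = 0.0326) and with the replicate block (adjusted p = 0.0131). Its ST2- mean exceeded its ST2+ mean in blood (759 against 603 CPM), lungs (732 against 585 CPM), colon (792 against 731 CPM) and skin (674 against 607 CPM), while spleen (272 against 359 CPM) and VAT (522 against 705 CPM) ran the other way.

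The 5 mice also differed in 3 of the 10 genes by an F test over the mice across the groups, beside 7.44% of all genes. These were Rara (adjusted p = 0.00616), Nr3c1 (adjusted p = 0.0104) and Tsc22d3 (adjusted p = 0.0104), with 0 called without mouse 1 and 1 without mouse 4. Of the 8 chaperone and hormone handling genes, 5 differed between mice. In mouse 1, Nr3c1 lay below its group mean in 11 of 13 libraries, by 0.29 on average on the log2 scale, and in mouse 4 it lay above it in 12 of 14. Tsc22d3 was above its group mean in 13 of 13 libraries of mouse 2. Rara was above in 10 of 13 libraries of mouse 1 and below in 13 of 14 libraries of mouse 4. These offsets, of at most 0.30 on average, are small beside the tissue differences in Nr3c1 and Rara.

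**Figure D5:**
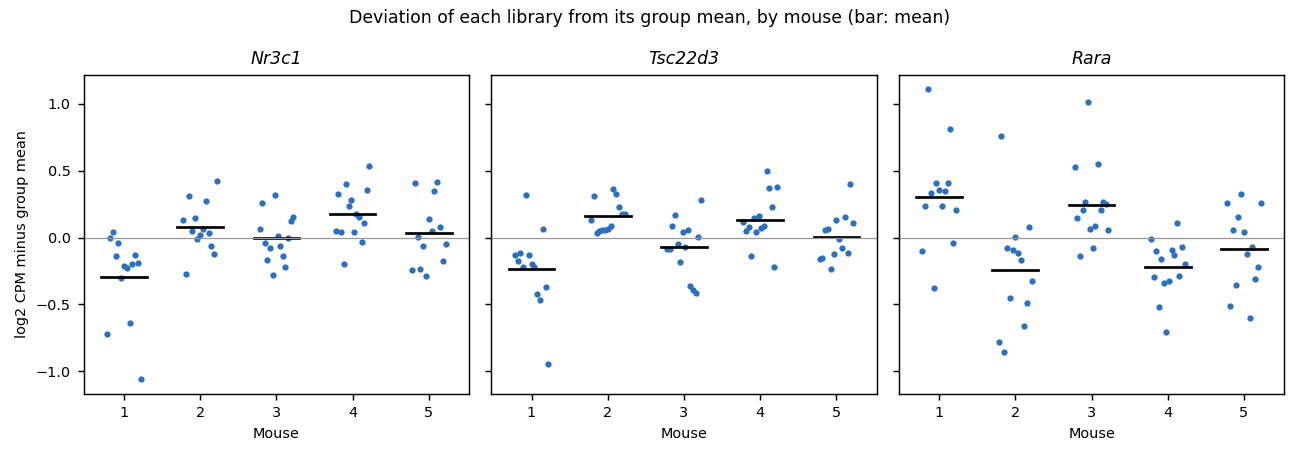
Deviation of each library from its group mean in log2 CPM (vertical axis) for Nr3c1, Tsc22d3 and Rara by mouse (horizontal axis), with the mean over libraries as a bar. Mouse 1 is low in Nr3c1 and Tsc22d3 (−0.29 and −0.23) and high in Rara (0.30).

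The other nuclear receptor genes were counted in the same way. Of 22 tested, 8 were higher and 2 lower in skin, beside 21.6% and 15.6% of all genes. In spleen 3 were higher and 9 lower (9.9% and 6.04% of all genes). All calls were higher in colon (8, beside 16.5% of all genes higher), VAT (4, 5.72%) and lungs (2, 2.97%). All were lower in blood (6, beside 8.19% of all genes lower). The NR4A genes, orphan receptors that T cell receptor signals induce quickly, led: Nr4a3 was higher in skin (3.67, adjusted p = 2.56e-26) and Nr4a1 was lower in blood (−4.90, adjusted p = 2.11e-19). Nr3c2, the mineralocorticoid receptor gene, whose protein also binds glucocorticoids, was lower in skin (−1.98, adjusted p = 0.00526) and higher in spleen (1.40, adjusted p = 0.0190). Rora was lower in spleen (−1.95, adjusted p = 1.24e-13). Of 12 coregulator genes, 1 was called higher and 1 lower in skin, and 1 was called higher in colon, a smaller part than of all genes in skin. Ep300 was the one higher in skin (0.60, adjusted p = 4.89e-05). Nrip1, a ligand-dependent corepressor gene, was lower in skin (−1.25, adjusted p = 3.98e-13) and higher in colon (1.27, adjusted p = 1.19e-13).

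Over the mean log2 CPM of the 14 groups, the patterns most like the members were ranked by Pearson's r, a description over groups that share mice and depth. Nr3c1 was closest to Hlf (0.985), Dgat1 and D16Ertd472e, Rara to Sh3glb1 (0.967), Spin1 and Dennd5a, and Rxra to Ubxn2a (0.954), Tpm4 and Baz1a. Nr1d1 was closest to Gzmb (0.975), Vdr to the clock gene Npas2 (0.927), Tsc22d3 to the ribosomal protein gene Rps14 (0.896) and Rarg to D230025D16Rik (0.863). Among the members themselves the closest pairs were Nr3c1 with Nr1d1 (0.925), Rara with Nr1d2 (0.908) and Nr3c1 with Nr1d2 (0.902).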

How the data were processed

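Single-end RNA-seq libraries (SMART-Seq v4 and Nextera XT, which keep no strand) came from 55 to 220 sorted cells each. CPM means TMM-scaled counts per 1000000. The deposited values are raw counts of reads per gene, which the authors made by aligning reads to the mouse genome with STAR and counting with HTSeq 0.4.1. The strand setting is not given in the sources used here. Libraries under 1000000 counts were left out. The filter on low counts kept the 13173 protein-coding genes (GENCODE, GRCm38) that reached 1 CPM in 10% of the 67 libraries. TMM scaling and the quasi-likelihood test of edgeR 4.0.16 (R 4.3.3) were applied with 1 term per group, and 42 contrasts were made. A gene was called at a 1.5-fold change and an adjusted p of 0.05 (Benjamini-Hochberg over all tested genes). F tests used the adjusted p alone. Promoter sequences came from RefSeq. The test was tried on simulated counts first. P-values of the group comparisons set a difference against the spread between libraries of a group, which come from different mice. This fit has no mouse term, so libraries of the same mouse in different groups count as independent. The mouse F test sets differences between mice against the spread that remains between libraries.

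The members and lists were chosen with earlier results of these data known. All members are named, and of each list the genes with the lowest adjusted p in each direction are the ones from which examples were taken. Gzmb, Npas2 and the other patterns most like a member were ranked among all tested genes, and some items that the rule would name are not reported here. Alternatives were DESeq2 1.42.0, limma-voom (limma 3.58.1), other scalings and filters, all 70 libraries, single comparisons alone, sorted cell number as a covariate, a replicate block, and leaving out each mouse. One was added after seeing the data: leaving out 5 libraries rich in epithelial markers. Same-numbered libraries come from the same animal, so numbers pair the samples. The deviations of 27 such pairs correlated at 0.0716 on average, against −0.0175 between mice, over 13173 genes.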

Additional observations from a re-analysis of the deposited data

Results flagged for a closer look

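Single libraries that stood apart from the others of their group were looked for by Dixon's test in 128 sets of 4 or 5 values, and 7 passed the 95% limit, where chance gives about 5 in 100. Of these, 4 concern Vdr, and 3 of the 4 are groups in which all other libraries were at 0. Vdr was 44.7 CPM in VAT ST2+ CD44hi mouse 2, against 1.22 to 5.97 CPM in the other 4 libraries. It was 0.379 CPM in spleen ST2+ CD44hi mouse 1, 2.71 CPM in spleen ST2- CD44lo CD62L+ mouse 3 and 0.461 CPM in blood ST2+ CD44hi mouse 4, with 0 in the others. Rxrb was 104 CPM in blood ST2- CD44hi mouse 3, against 46.3 to 59.1 CPM. Nr1d2 was 37.8 CPM in lung ST2- CD44lo CD62L+ mouse 4, against 75.4 to 88.8 CPM, and Tsc22d3 was 258 CPM in VAT ST2- CD44hi mouse 1, against 538 to 646 CPM.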

How the results depend on the processing

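Of 32 called member values, 19 were called under every setting and 0 changed direction; of 453 recomputed values, 414 kept their call and 39 lost it. ST2 calls, 3 with edgeR, were 5 with DESeq2, 1 with all 70 libraries, 1 with the 2 groups of a comparison alone and 1 to 3 without single mice. The CD44 comparison in spleen, with 1 call, gave 2 with DESeq2, 2 with limma-voom and 2 with its groups alone. The interaction test, with 0, gave 1 with DESeq2 and 1 with the replicate block. The mouse test, with 3, gave 5 with DESeq2 and 0 to 3 without single mice. Without single mice, the calls against the mean of the other tissues (23) were 19 to 22, those in tissue pairs (68) 58 to 65, the tissue F tests (9 and 9) 7 to 8 and 8 to 9, CD44 in lungs (3) 2 to 3, and resting Tregs (2) 2 to 3. Without the 5 libraries rich in epithelial markers, which leaves 1 colon ST2+ library, ST2 calls were 2, tissue calls 21, pair calls 58 and the ST2+ tissue F test 6. The replicate block ended the Vdr call in VAT (adjusted p = 0.0664), added Nr3c1 in colon (0.61), Rara between ST2+ and ST2- in VAT (0.94) and the Tsc22d3 interaction, and changed no other call. Vdr was not tested under the filter of 1 CPM in 50% of libraries. The causes were not tested. Depth limits Vdr, and Nr1d1 in blood and resting Tregs, where libraries at 0 allow up to 3 counts.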
